A study of Mus musculus with 10 samples.

Results

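The SLC22 family holds membrane carriers that move small organic anions, cations and zwitterions across the plasma membrane. In the liver they stand mainly on the blood-facing side of hepatocytes, where they take up drugs, vitamins, hormone conjugates and metabolites, and related members do the same work in kidney and gut. Their substrates overlap widely, and several mouse members of the organic anion branch have no direct human counterpart.

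Described here are 8 named SLC22 genes out of 31218 genes in the deposited table: Slc22a7, Slc22a28 and Slc22a30 of the organic anion branch, Slc22a3 and Slc22a4 of the cation and zwitterion branches, Slc22a15, and the carriers with little known substrate, Slc22a18 and Slc22a23. They were picked by name, with the difference between the groups in these livers already known, so that difference is given for them as a description without a test. The table lists 23 SLC22 genes, and 10 of the 15 others had enough counts to be tested. The 10 livers came from mice fed a high-fat diet for 16 weeks. A group of 5 carried the genotype Me1 flox/flox and was wild-type littermates (Flox), and 5 were hepatocyte-specific knockouts of Me1 written as Me1 Alb/Alb (HKO). Me1 is the cytosolic malic enzyme, which makes NADPH from malate. The labels give no sex, age, litter, batch or Cre line. Numbers 1 to 5 name the livers of a group by accession order, and nothing in the labels says more about how they were taken. The p-values therefore set the difference between groups against the spread between these livers only.

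Total counts were 52790000 to 60765120 per liver, and Me1 itself was 36.4 ± 6.18 FPKM in Flox and 5.58 ± 0.841 FPKM in HKO (mean ± SD, n = 5 each). FPKM is the deposited count scaled by gene length and library total, and CPM here is the library-scaled count after TMM factors, which correct for a few abundant genes taking up reads. The factors were 0.896 to 0.965 in Flox and 0.998 to 1.16 in HKO, so CPM places HKO lower against Flox than FPKM does, by 0.23 on the log2 scale. Summed CPM of 12 hepatocyte markers was 97124 to 116033 in Flox and 73414 to 92427 in HKO, with no overlap on this scaling. Sums by FPKM were not made. Alb made up most of the sum, at a mean of 68541 CPM in Flox and 55491 CPM in HKO. Markers of some other liver cells lay the other way: summed cholangiocyte markers were 65.9 to 84.1 CPM in Flox and 95.7 to 142 CPM in HKO, without overlap. Summed stellate and fibroblast markers were 183 to 393 CPM in Flox and 340 to 562 CPM in HKO, and their mean log2 CPM was 3.16 to 4.41 in Flox and 4.50 to 5.26 in HKO, without overlap. By the edgeR test 4 of 12 hepatocyte markers fell, and 3 of 7 tested cholangiocyte, 4 of 9 stellate and fibroblast and 3 of 10 macrophage markers rose. Over all 18065 tested genes 6.40% fell and 4.86% rose by this test. Summed macrophage markers overlapped, at 261 to 590 CPM in Flox and 416 to 522 CPM in HKO. So did sinusoidal endothelial markers, at 261 to 408 CPM in Flox and 341 to 423 CPM in HKO. T and B cell markers overlapped too, at 9.72 to 18.0 CPM in Flox and 12.6 to 22.6 CPM in HKO. HKO 4 and HKO 5 stood apart: summed epidermis markers were 458 and 493 CPM there against at most 118 CPM elsewhere, and summed muscle markers were 246 and 269 CPM against at most 5.86 CPM. The part of these differences in the results below was not tested, and in whole liver fewer cells of a type and less RNA per cell cannot be told apart.

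In Flox livers the 8 genes fell into an abundant and a scarce group, by FPKM, which allows genes of different length to be set side by side. Slc22a18 had the highest mean, 30.2 ± 2.59 FPKM, followed by Slc22a30 at 23.9 ± 2.92 FPKM, and the ranges of these neighbours overlapped. Slc22a23 followed at 14.2 ± 1.74 FPKM and Slc22a7 at 11.4 ± 2.63 FPKM, again with overlapping ranges. Slc22a28 had 6.97 ± 2.33 FPKM, overlapping Slc22a7. The scarce genes were Slc22a3 at 1.15 ± 0.447 FPKM, Slc22a4 at 0.966 ± 0.233 FPKM and Slc22a15 at 0.855 ± 0.161 FPKM, and their ranges overlapped each other but lay below every Slc22a28 value. All 8 had counts in all livers. Together the 8 genes made up 25.0% to 33.3% of summed SLC22 FPKM in each liver.

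**Figure D1:**
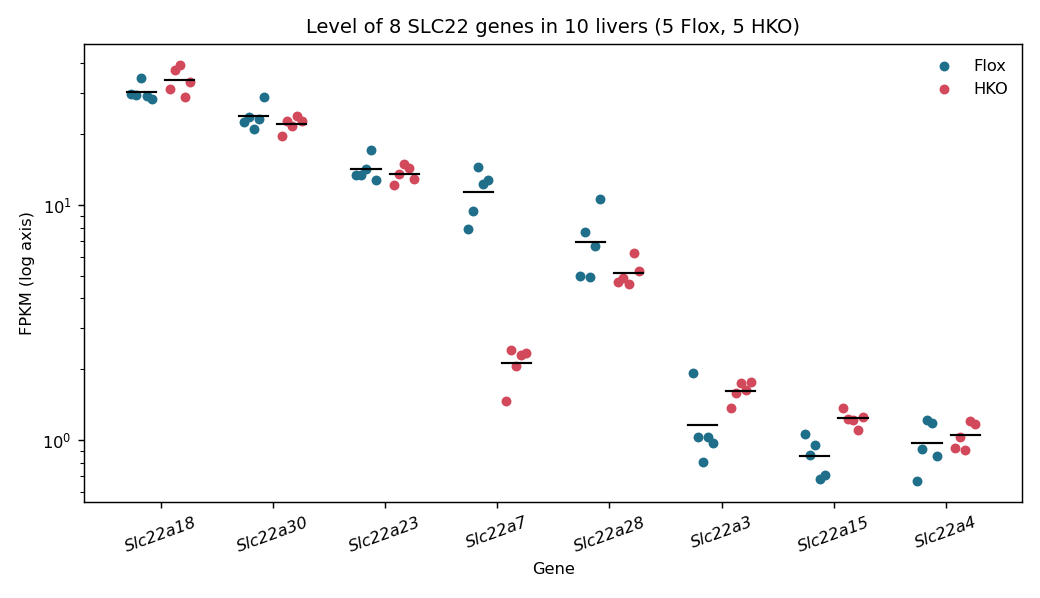
FPKM of each of the 8 genes on a log axis, with 1 point per liver (blue Flox, red HKO) and a bar at each group mean. Slc22a7 is the gene whose groups lie farthest apart, at 11.4 FPKM in Flox and 2.12 FPKM in HKO, while Slc22a3, Slc22a4 and Slc22a15 lie near 1 FPKM.

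Slc22a7 encodes the organic anion transporter OAT2 of the hepatocyte's blood-facing membrane (ENSMUSG00000067144, chromosome 17, 46432183 to 46438457, minus strand). Its FPKM was 7.92, 9.44, 14.4, 12.2 and 12.8 in Flox 1 to 5, and 1.46, 2.42, 2.06, 2.30 and 2.34 in HKO 1 to 5. Every HKO liver lay far below every Flox liver, and HKO 1 was the lowest of all. The HKO mean of 2.12 ± 0.391 FPKM was 18.6% of the Flox mean. On the count scale the log2 difference, HKO minus Flox, was -2.65, or 6.26-fold lower. It stayed between -2.75 and -2.55 when any single liver was left out. Without HKO 4 and HKO 5 it was -2.69, and on the FPKM scale with a pseudocount of 0.5 it was -2.16. Counts of 1100 to 2005 per Flox liver and 205 to 324 per HKO liver stood behind these values. Among 12739 tested genes outside the family with a mean of at least 1 CPM, the pattern over the 10 livers most like that of Slc22a7 belonged to Shmt2, a mitochondrial serine hydroxymethyltransferase, by the mean absolute difference of z-scored log2 CPM (0.0801). Shmt2 ranged from 235 to 256 CPM in Flox and from 169 to 179 CPM in HKO. Z-scores leave out the size of a difference, and Shmt2 was only 1.42-fold lower in HKO. The match also holds the difference between groups, on which Slc22a7 was chosen, so no link between these genes is read from it.

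Slc22a28 and Slc22a30 are rodent genes of the organic anion branch that lie in 1 cluster on chromosome 19. Slc22a28 (ENSMUSG00000063590) spans 8062209 to 8131982 and Slc22a30 (ENSMUSG00000052562) spans 8335371 to 8405111, both on the minus strand, with Slc22a29 between them. Their coding sequences were 98.8% identical, 1636 of 1656 bases, whereas the next closest pair of the 8, Slc22a3 and Slc22a4, shared 54.3%. Their promoters, 250 bases before to 50 after the annotated start, are shown because they are nearly the same as well. They come from RefSeq on GRCm38.p6, minus strand, at chr19:8131933-8132232 for Slc22a28 and chr19:8405056-8405355 for Slc22a30, and capitals mark bases that differ or that the other stretch does not reach.
Slc22a28: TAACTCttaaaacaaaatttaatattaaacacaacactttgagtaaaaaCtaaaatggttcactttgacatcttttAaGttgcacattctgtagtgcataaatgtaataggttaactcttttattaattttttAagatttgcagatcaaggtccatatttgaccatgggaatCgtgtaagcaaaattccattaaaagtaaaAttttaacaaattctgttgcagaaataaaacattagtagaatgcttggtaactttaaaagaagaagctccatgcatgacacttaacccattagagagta
Slc22a30: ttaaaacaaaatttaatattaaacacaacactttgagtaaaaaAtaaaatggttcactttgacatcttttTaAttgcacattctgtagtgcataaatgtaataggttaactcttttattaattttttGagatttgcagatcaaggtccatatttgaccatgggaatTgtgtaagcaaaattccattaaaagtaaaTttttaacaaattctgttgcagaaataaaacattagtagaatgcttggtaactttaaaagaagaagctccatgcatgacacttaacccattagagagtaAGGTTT
The pair matched at 288 of 306 aligned columns, or 94.1%. Only 6 bases were substituted, and 6 at one end of each stretch lay outside the other. By the same alignment Slc22a28 and Slc22a29 promoters matched at 68.0%.

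The near identity bears on how these 2 genes were counted. Of 100-base windows of the annotated transcripts, 37.0% of those of Slc22a28 and 21.1% of those of Slc22a30 also occurred in another SLC22 transcript, against 0 in the other 6 genes. The rule by which the authors assigned reads that match several genes is not stated, so the split between Slc22a28 and Slc22a30 is uncertain. The CPM of Slc22a28 was 12.6, 18.2, 11.7, 16.7 and 26.5 in Flox 1 to 5, and 10.7, 10.6, 9.67, 12.5 and 10.5 in HKO 1 to 5. Flox 5 was the highest, the HKO livers were close together, and HKO 4 overlapped the lowest Flox liver. By FPKM HKO 4 and HKO 5, at 6.27 and 5.23, lay above Flox 1 and Flox 3, at 4.97 and 4.94. The difference of mean log2 values was -0.39 by FPKM and -0.61 by CPM. In the fit on counts the log2 difference was -0.67, and -0.46 without Flox 5. The spread differed in size too: by CPM the coefficient of variation was 34.3% among Flox livers and 9.47% among HKO livers.

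Slc22a30 was the more abundant of the pair, at 96.0, 94.6, 84.1, 97.8 and 121 CPM in Flox 1 to 5 and 75.5, 83.0, 76.7, 79.4 and 76.2 CPM in HKO 1 to 5. No HKO liver reached the lowest Flox liver, though the margin was narrow, and Flox 5 was again the highest. The log2 difference was -0.34. By FPKM the groups overlapped, at 23.9 ± 2.92 in Flox and 22.1 ± 1.54 in HKO. Slc22a28 counts were 13.2% to 21.9% of Slc22a30 counts in Flox livers and 12.6% to 15.7% in HKO livers. Of all pairs of tested SLC22 genes, these 2 had the most alike patterns over the 10 livers (mean absolute z difference 0.280), and their shared sequence stands beside that value.

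The other genes of the chromosome 19 cluster followed another order of livers. Slc22a27 had 18.0, 5.68, 11.4, 2.62 and 2.31 CPM in Flox 1 to 5 and 13.2, 25.1, 15.9, 3.16 and 15.0 CPM in HKO 1 to 5. Flox 4, Flox 5 and HKO 4 were the lowest livers for Slc22a27, whereas Flox 5 was the highest for Slc22a28. None of the neighbours passed the test: the log2 difference was 0.86 (SE 0.64) for Slc22a27, with an edgeR adjusted p of 0.429. It was 0.30 (SE 0.44) for Slc22a29, with an edgeR adjusted p of 0.711, and 0.15 (SE 0.56) for Slc22a26, with an edgeR adjusted p of 0.898. Summed CPM of 21 genes known as male-biased in mouse liver also varied within Flox, at 9715, 17852, 10324, 23966 and 28254 in Flox 1 to 5. It was 5510 to 10930 in HKO. Major urinary protein genes made up most of this sum, with means of 5009, 5131 and 2579 CPM in Flox. In HKO the means of the same genes were 1472, 841 and 3532 CPM, so the last of them lay higher there. Flox 4 and Flox 5 had the highest male-biased sums and the lowest Slc22a27. HKO 4 was low in Slc22a27 as well, at 3.16 CPM against 11.4 CPM in Flox 3. Yet its male-biased sum of 10930 CPM was near that of Flox 3. The part of the male-biased genes in the cluster's values was not tested. Of these 21 genes 13 fell and 1 rose by the edgeR test, against 6.40% and 4.86% of all tested genes. Of 13 tested female-biased genes 3 rose and 0 fell, with 4 up and 0 down at an unadjusted p under 0.05, 4 and 0 by DESeq2, and 5 and 0 by limma.

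**Figure D2:**
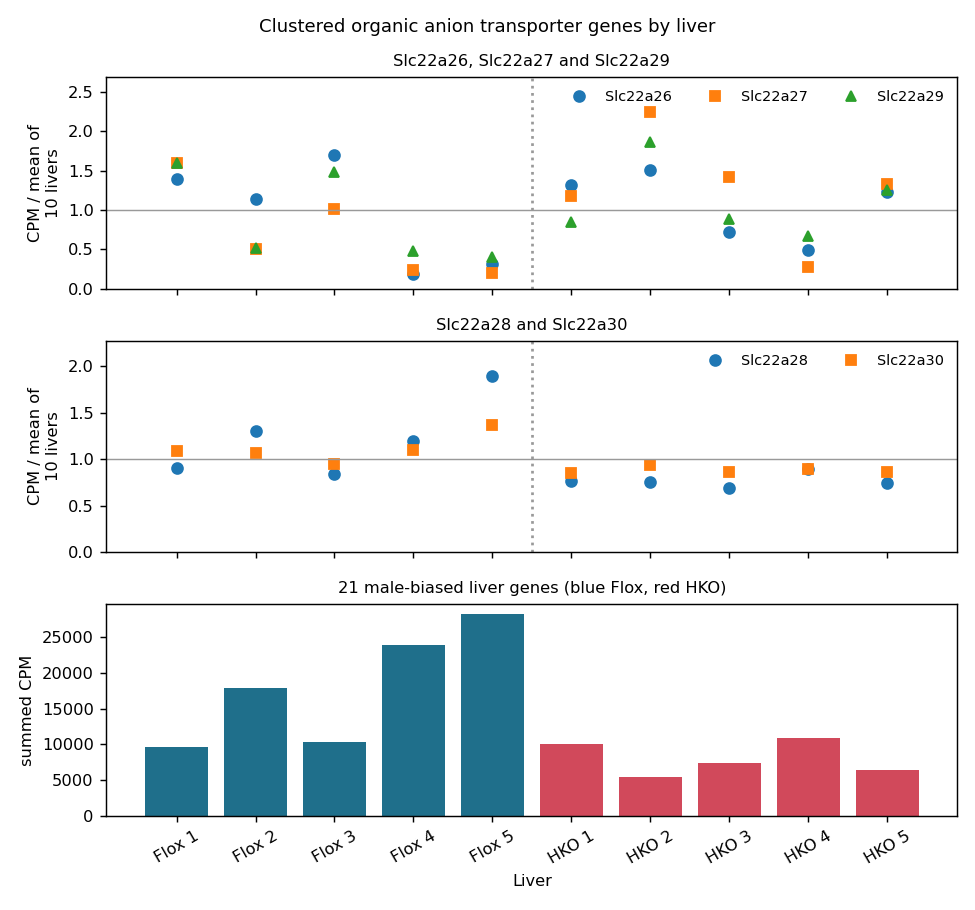
CPM of the clustered genes in each liver divided by that gene's mean over the 10 livers (upper and middle panels), and the summed CPM of 21 male-biased liver genes (lower panel, blue Flox, red HKO). Slc22a28 and Slc22a30 peak in Flox 5, where Slc22a27 is at 2.31 CPM and the male-biased sum is 28254 CPM.

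Slc22a3 encodes OCT3, a carrier of monoamines and other organic cations (ENSMUSG00000023828, chromosome 17, 12418960 to 12507704, minus strand). Its FPKM was 1.93, 1.03, 0.804, 1.03 and 0.966 in Flox 1 to 5, and 1.36, 1.58, 1.74, 1.63 and 1.76 in HKO 1 to 5. Flox 1 was the highest liver of all, the other Flox livers lay below every HKO liver, and so the groups overlapped through Flox 1 alone. The log2 difference on the count scale was 0.25, and 0.53 without Flox 1. The end of Slc22a3 overlaps Plg, the plasminogen gene on the other strand, by 420 of its 4513 exon bases. Plg is an abundant hepatocyte transcript, at 468 to 554 FPKM in Flox and 404 to 443 FPKM in HKO, and use of strand in the counting is not given in these sources. Plg had 96065 to 135628 counts per liver and Slc22a3 had 241 to 578. These totals cannot tell how reads within the shared stretch were split, since a small share of Plg reads would equal all Slc22a3 counts. The part of Plg reads in the Slc22a3 values was not tested.

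Slc22a3 lies in the imprinted Igf2r region, and 6 of 8 listed neighbours were tested there. By the edgeR test 3 rose and 2 fell, against 4.86% and 6.40% of all tested genes. Their median log2 difference was 0.16, against 0.02 over all genes. Mas1, a receptor gene, rose by 2.06 (SE 0.30, edgeR adjusted p = 0.00195), from 0.220 to 0.766 CPM in Flox to 1.87 to 3.00 CPM in HKO. Airn, the noncoding RNA that runs antisense to Igf2r, rose by 1.56 (SE 0.38, edgeR adjusted p = 0.0225). It had only 8 to 31 counts per Flox liver and 41 to 89 per HKO liver. Igf2r, with 2419 to 3978 counts per liver, rose by 0.25 (SE 0.07, edgeR adjusted p = 0.0363). These neighbours overlap on opposite strands, which leaves their split uncertain. Plg fell by 0.48 (SE 0.08, edgeR adjusted p = 0.00340). The 3 higher calls came down to 1 without Flox 5 or without HKO 5.

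Slc22a4 encodes OCTN1, known as the ergothioneine transporter (ENSMUSG00000020334, chromosome 11, 53983123 to 54028090, minus strand). Its FPKM was 0.667, 0.911, 1.22, 1.18 and 0.851 in Flox 1 to 5 and 0.921, 1.03, 0.906, 1.21 and 1.17 in HKO 1 to 5. The groups overlapped throughout. The log2 difference was -0.11 on the count scale and 0.09 by limma on FPKM, so its sign depended on the scaling. Only 114 to 208 counts per liver stood behind this gene, the fewest of the 8.

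Slc22a15, whose human counterpart carries zwitterions, has a long annotated transcript (ENSMUSG00000033147, chromosome 3, 101855776 to 101924449, minus strand). Its FPKM was 1.06, 0.866, 0.952, 0.685 and 0.708 in Flox 1 to 5, and 1.36, 1.23, 1.22, 1.11 and 1.25 in HKO 1 to 5. By FPKM every HKO liver was above every Flox liver, whereas by CPM the groups overlapped. The log2 difference on the count scale was 0.31. The gene most like it over the 10 livers was Cidec, which codes for a lipid droplet protein (mean absolute z difference 0.160). Cidec was at 32.4 to 188 CPM in Flox and 68.1 to 205 CPM in HKO. Here too the match holds the difference between groups, and no link is read from it.

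Slc22a18 is an imprinted gene of the Kcnq1 region whose substrate is not settled (ENSMUSG00000000154, chromosome 7, 143473736 to 143499334, plus strand). Its FPKM was 29.7, 29.4, 34.7, 29.1 and 28.1 in Flox 1 to 5, and 31.1, 37.6, 39.4, 28.9 and 33.4 in HKO 1 to 5. The groups overlapped, with HKO 3 the highest and Flox 5 the lowest. The log2 difference was -0.04 on the count scale and 0.17 by limma on FPKM. It was 0.09 without HKO 4 and HKO 5, and 0.03 without HKO 4 alone, so its sign was not settled. Of 12 tested neighbours in the region 3 rose by the edgeR test and 0 fell, against 4.86% and 6.40% of all tested genes. At an unadjusted p under 0.05 there were 4 up and 1 down, with 4 and 1 by DESeq2 and 5 and 0 by limma. Tnfrsf22, a decoy receptor gene, rose by 1.06 (SE 0.21, edgeR adjusted p = 0.00865). Leaving out Flox 3, Flox 4, Flox 5, HKO 1, HKO 2, HKO 3 or HKO 5 brought the 3 calls down to 1.

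Slc22a23 is an orphan carrier (ENSMUSG00000038267, chromosome 13, 34179158 to 34345182, minus strand). Its CPM was 109, 102, 107, 137 and 102 in Flox 1 to 5, and 88.1, 94.1, 100.4, 90.8 and 82.2 in HKO 1 to 5. Every HKO liver lay below every Flox liver, though HKO 3 came close, and Flox 4 was the highest. The log2 difference was -0.29. By FPKM the groups overlapped, at 14.2 ± 1.74 in Flox and 13.6 ± 1.12 in HKO.

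Across the 8 genes, the median log2 difference on the count scale, with TMM factors, was -0.20, against 0.02 over all genes tested. By CPM 3 genes had all HKO livers below all Flox livers (Slc22a7, Slc22a23 and Slc22a30), and 6.48% of 18065 tested genes did so. By CPM, for 0 of the 8 did all HKO livers lie above all Flox livers, against 4.41% of tested genes. By FPKM only Slc22a7 had all HKO livers below all Flox livers, and only Slc22a15 had all of them above. The share of all tested genes that did so by FPKM was not computed. Since the 8 were chosen on this contrast, nothing is read from these counts. CPM placed every one of the 8 lower in HKO than FPKM did, which moved Slc22a30 from -0.11 by FPKM to -0.33 by CPM and Slc22a15 from 0.55 to 0.32 on the log2 scale.

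**Figure D3:**
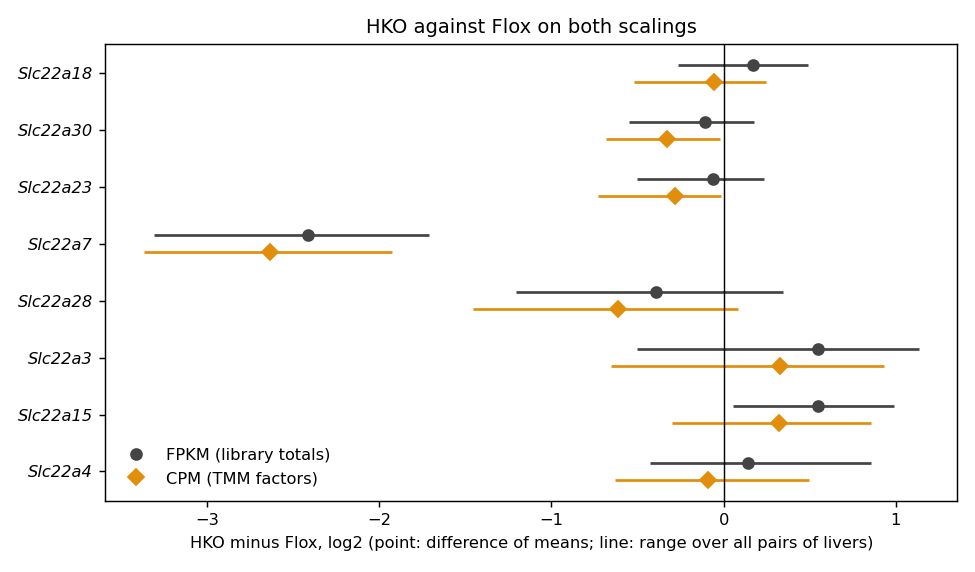
Log2 difference, HKO minus Flox, of each of the 8 genes by FPKM (grey circles) and by CPM with TMM factors (orange diamonds), with lines from the lowest to the highest difference between single livers of the groups. Slc22a7 lies at -2.41 by FPKM and -2.63 by CPM, and Slc22a18 and Slc22a4 change sign between the scalings.

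Among the 10 other tested SLC22 genes 1 fell and 0 rose by the edgeR test, and of all tested genes 11.3% passed it, 6.40% lower and 4.86% higher in HKO. Slc22a5, the carnitine transporter OCTN2, had a log2 difference of -0.46 (SE 0.25, edgeR adjusted p = 0.273), with HKO 3 and HKO 4 lowest at 16.0 and 17.9 FPKM. Slc22a17, a lipocalin 2 receptor, had a log2 difference of 0.49 (SE 0.22, edgeR adjusted p = 0.173). Its FPKM was 1.86 and 2.06 in HKO 4 and HKO 5, the livers with epidermis and muscle transcripts, and at most 1.11 elsewhere. The part of those transcripts in it was not tested. None of these 10 rose by edgeR, 1 did at an unadjusted p under 0.05, and 0 did by DESeq2 or by limma.

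**Figure D4:**
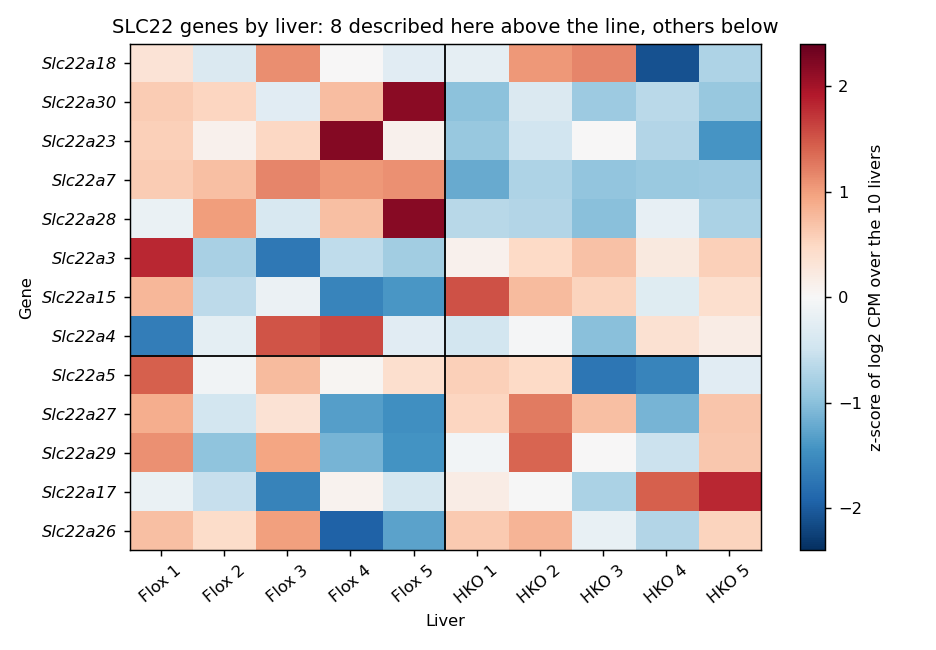
Z-scored log2 CPM over the 10 livers for the 8 genes (above the line) and 5 other SLC22 genes with a mean of at least 1 FPKM (below it), with red for high and blue for low. Slc22a7 is above its mean in every Flox liver and below it in every HKO liver, Slc22a30 is likewise except for Flox 3 at -0.26, and Slc22a17 is highest in HKO 4 and HKO 5.

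Carriers of other families that share substrates with the SLC22 genes moved in both directions. Of 33 tested polyspecific transporters 3 rose and 7 fell by the edgeR test, against 4.86% and 6.40% of all tested genes. Their median log2 difference was -0.02. Abcb1a, an efflux pump for hydrophobic drugs, rose by 1.17 (SE 0.20, edgeR adjusted p = 0.00440), and Abcc5, an organic anion efflux pump, rose by 0.46 (SE 0.10, edgeR adjusted p = 0.0128). Slco1a1, an organic anion uptake carrier that is also among the male-biased genes, fell by 3.79 (SE 0.77, edgeR adjusted p = 0.0126), from 74.1 to 323 CPM in Flox to 2.97 to 45.7 CPM in HKO. Slc17a3, an organic anion and urate carrier, fell by 0.60 (SE 0.10, edgeR adjusted p = 0.00440). The 7 lower calls came down to 4 without Flox 3 or Flox 4, and to 3 without Flox 5 or without HKO 5.

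Genes listed for the handling of carnitine, amines, urate and purines, and NRF2 targets, were read in the same way. The share of all tested genes by edgeR was 6.40% lower and 4.86% higher. Of 14 tested carnitine genes 5 fell and 0 rose by edgeR, with 6 down and 0 up at an unadjusted p under 0.05, 5 and 0 by DESeq2, and 2 and 0 by limma. They were the carnitine palmitoyltransferase Cpt2, the mitochondrial carnitine carrier Slc25a20, and Shmt2, Aldh9a1 and Bbox1, listed for carnitine synthesis. Cpt2 fell by 0.63 (SE 0.06, edgeR adjusted p = 4.1e-04), from 268 to 291 CPM in Flox to 170 to 196 CPM in HKO. Of 12 tested monoamine and amine genes 2 rose and 0 fell by edgeR, with 3 up and 2 down at an unadjusted p under 0.05, 2 and 1 by DESeq2, and 4 and 0 by limma. These were the creatine transporter Slc6a8, by 1.03 (SE 0.14, edgeR adjusted p = 0.00124), and Gatm, an enzyme of creatine synthesis, by 0.51 (SE 0.11, edgeR adjusted p = 0.0171). Of 10 tested urate and purine genes 3 fell and 0 rose by edgeR, with 4 down and 0 up at an unadjusted p under 0.05, 3 and 0 by DESeq2, and 2 and 1 by limma. Slc2a9, a urate transporter, fell by 0.64 (SE 0.12, edgeR adjusted p = 0.00628). Of 21 NRF2 targets, which include the efflux pump Abcc4, 10 rose and 0 fell by edgeR, with 14 up and 0 down at an unadjusted p under 0.05, 12 and 0 by DESeq2, and 16 and 0 by limma.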

How the data were processed

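RNA-seq of 10 mouse livers was read from a table of the whole series. Per the file headers, the authors deposited a count and an FPKM value per gene and liver, and the counts are whole numbers. Tools named in the submitters' processing notes, with no role stated, were HISAT2 2.2.1, StringTie 2.1.6, cutadapt 1.9, edgeR and DESeq2. Libraries were strand-marked, per the labels' protocols. Genome build, counting of shared reads and use of strand are not given in the sources used here. Coordinates are those of the table, and 7 of the 8 genes have the same position in GENCODE M21 (GRCm38), where the end of Slc22a15 differs.

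The test was edgeR 4.0.16 (R 4.3.3): filterByExpr kept 18065 genes, with TMM factors, a robust quasi-likelihood fit without covariates, two-sided tests and Benjamini-Hochberg adjustment over all genes at 0.05. Alternatives were DESeq2 1.42.0, limma 3.58.1 on log2(FPKM + 0.5), other scalings, no filter and each liver left out. The script was checked on simulated data. Depth of 52790000 to 60765120 counts per liver limits mainly the scarce genes.

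The 8 genes, the gene lists and the rule for named genes were chosen with earlier results of these data known. The rule names the 8 genes, Me1, at most 6 genes of smallest p per list among those past the threshold, other SLC22 genes with a mean of at least 1 FPKM, and the genes most like each of the 8, of which the closest are reported for Slc22a7 and Slc22a15. Values of 1 other SLC22 gene under this rule are not reported here. Identity between genes was computed on GENCODE M21 coding sequences and on RefSeq promoters (7 of the 8 genes matched), in place of the planned protein comparison, which was not made here.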

Additional observations from a re-analysis of the deposited data

Results flagged for a closer look

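Within each group of 5 livers, the gap from the highest or lowest FPKM to the nearest other liver was divided by the range of the group, and a ratio above Dixon's critical value of 0.71 was picked out. Of 28 groups of values 2 passed, and chance alone picks out a small share of groups. Slc22a3 in Flox 1 was 1.93 FPKM, against 1.03 FPKM in the next Flox liver, with a ratio of 0.797. Slc22a18 in Flox 3 was 34.7 FPKM, against 29.7 FPKM in the next Flox liver, with a ratio of 0.754.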

How the results depend on the processing

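No paired analysis was made, because the labels give no litter and do not pair Flox with HKO livers. The log2 difference of Slc22a7 kept its direction under all alternatives run, and those of Slc22a18 and Slc22a4 did not. Leaving out HKO 4 and HKO 5 together and removing length and GC trends were chosen after seeing the data. The edgeR test called 878 genes higher and 1156 lower. DESeq2 gave 1566 higher, limma on FPKM 3212 higher and 396 lower (89.0% higher against 43.2%, with the median of all genes at 0.14), and leaving out HKO 4 and HKO 5 gave 454 higher and 539 lower. Leaving out single livers gave 498 to 1058 higher and 691 to 1162 lower, with the higher count over 1.5 times smaller without Flox 2, Flox 4, Flox 5 or HKO 5 and the lower count without HKO 5.

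With limma on FPKM the lists changed to 0 lower other SLC22 genes, 8 higher and 3 lower polyspecific transporters, 2 lower carnitine genes, 4 higher amine genes, 1 higher urate gene, 1 lower Slc22a3 neighbour, 5 higher Slc22a18 neighbours, 2 higher male-biased genes, 5 higher female-biased genes and 16 higher NRF2 targets. Without HKO 4 and HKO 5 there were 0 lower other SLC22 genes, 3 lower polyspecific transporters, 3 lower carnitine genes, 1 higher amine gene, 1 higher and 1 lower Slc22a3 neighbour, 1 higher Slc22a18 neighbour and 0 higher male-biased genes. DESeq2 gave 6 higher and 12 lower polyspecific transporters, 1 lower amine gene and 1 lower Slc22a18 neighbour, and no filter gave 1 higher Slc22a18 neighbour. Leaving out single livers gave 3 to 8 lower polyspecific transporters, 1 to 3 higher Slc22a3 neighbours, 1 to 4 higher Slc22a18 neighbours and 0 to 1 higher male-biased genes. The cause was not tested. Depth limits the scarce genes most, with 114 to 208 counts per liver for Slc22a4.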

Other observations

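SLC22 carriers best known from kidney were near the limit of detection, and are named here after their values were seen. Slc22a12, the kidney urate transporter, was highest in Flox 3 at 0.481 FPKM and was listed at 0 in Flox 4. Slc22a6, the kidney organic anion transporter OAT1, was also highest in Flox 3, at 0.325 FPKM, and was listed at 0 in Flox 4, HKO 2 and HKO 4. Summed CPM of 8 kidney tubule markers was 24.3 in Flox 3 and 0.548 to 8.90 in the other livers. The part of kidney transcripts in these values was not tested.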
